A study of Mus musculus with 19 samples.

Results

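The lysyl oxidase family was followed in neoplastic cells sorted from mouse lung tumors. Its members were chosen by name, as the genes *Lox*, *Loxl1*, *Loxl2*, *Loxl3* and *Loxl4*, and all 5 are among the 53558 genes of the count files. Lung tumors were grown for 17 weeks in mice carrying R26LSL-tdTomato and H11LSL-Cas9, so that every group had a tdTomato reporter and Cas9, both switched on by the Cre of the virus. The virus given into the trachea set the 3 groups. Lenti-sgNeo1/sgNT/sgNeo2/Cre carries guides without a target of interest (sgInert, 7 libraries), Lenti-sgCebpa/sgCebpb/sgCebpd/Cre targets the 3 C/EBP transcription factors (sgCebpa/b/d, 7 libraries), and Lenti-sgLkb1/Cre targets the kinase LKB1, the product of *Stk11* (sgLkb1, 5 libraries). A guide cuts in each infected cell separately, so a tumor can hold cells whose target gene was not cut. Cells positive for CD45, CD31, F4/80 or Ter119, which mark blood, endothelial and red cells, were gated out in the sort. No antibody was named against fibroblasts. For its other RNA sequencing of sorted neoplastic cells, the study names these cells as tdTomato positive, a reporter that stays off without Cre. All 5 sgLkb1 libraries came from females, as did 4 of the sgCebpa/b/d and 3 of the sgInert libraries.

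Lysyl oxidases are secreted enzymes that need copper. They oxidize lysines in collagen and elastin, and the reactive groups so made join neighbouring fibres, which stiffens the matrix. *Lox* and *Loxl1* encode enzymes released from a propeptide by BMP1-type proteases, while *Loxl2*, *Loxl3* and *Loxl4* encode enzymes with scavenger receptor domains in front of the catalytic part. Fibroblasts and smooth muscle cells are known sources, and hypoxia and loss of LKB1 have both been tied to *Lox* in tumors.

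What the members share is the catalytic part, which holds a copper-binding stretch rich in histidine. The coding bases of this stretch are shown for 4 members, to let a reader see how alike the genes are where a read could be shared. Each has 33 bases, is written 5′ to 3′ on the coding strand as GENCODE gives it (GRCm38, the build also called mm10), and runs across an exon junction. Capitals mark the 4 histidine codons.
Loxl1: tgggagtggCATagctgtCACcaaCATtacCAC
Loxl2: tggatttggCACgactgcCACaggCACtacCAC
Loxl3: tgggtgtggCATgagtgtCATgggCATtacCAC
Loxl4: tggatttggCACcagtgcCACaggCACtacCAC
The *Loxl1* stretch lies within chr9:58293720-58294381 on the minus strand, in exons 3 and 4 of 7. That of *Loxl2* lies within chr14:69682316-69689037 on the plus strand, in exons 10 and 11 of 14. That of *Loxl3* lies within chr6:83049995-83050125 on the plus strand, in exons 10 and 11 of 14. That of *Loxl4* lies within chr19:42598807-42599899 on the minus strand, in exons 11 and 12 of 15.

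Over these 33 bases, *Lox* and *Loxl1* were the most alike pair, with 1 differing base and 0 differing residues, and the *Lox* bases themselves are not printed here. *Loxl2* and *Loxl4* differed at 2 bases, and *Loxl1* and *Loxl4*, the pair farthest apart, at 12. Outside such stretches the genes are far apart: among the 10 pairs of the 5 members, no pair of annotated transcripts shared a run of 75 bases, the read length, and 1 pair (*Lox* and *Loxl1*) shared runs of 31 bases, 2 in number. A read of the full length therefore does not match 2 members without a mismatch.

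The 19 libraries held 2760722 to 9944131 rounded expected counts each (median 6028918). Epithelial markers were high in all 19, and their changes between groups are given with the other markers below. *Sftpc*, the surfactant gene of alveolar type II cells, had 34746 to 135372 counts and *Nkx2-1*, the lung lineage factor, had 636 to 2674. *Stk11* was lower in all 5 sgLkb1 libraries than in all sgInert libraries (log2 fold change -1.24, SE 0.17, edgeR adjusted p = 0.000107). *Cebpa* RNA was higher in sgCebpa/b/d (log2 fold change 0.73, SE 0.14, edgeR adjusted p = 0.00148), and gene counts, which take reads from the whole transcript, do not show whether a guide cut. The titles of the libraries fall into 3 series, which are not explained. Of the sgInert libraries, 4 have a ZR number and 3 an MT number. The other groups have MT numbers (4 sgCebpa/b/d and 3 sgLkb1 libraries) or no number (3 and 2), so the ZR series holds sgInert libraries alone. Several MT libraries share an animal number: the 3 sgInert, the 4 sgCebpa/b/d and the 3 sgLkb1 MT libraries come from 2 animal numbers each, so p-values measure the spread between libraries and not between animals.

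*Lox* was the member with the most RNA. Corrected for transcript length (TPM), it was the highest of the 5 in 18 of 19 libraries and made up 33.5% to 87.4% of the summed TPM of the family (median 65.1%). Even so its level was low, at 0.40 to 5.66 TPM in sgInert, 1.88 to 6.63 TPM in sgCebpa/b/d and 4.26 to 11.06 TPM in sgLkb1 libraries. The other members were fainter still. Median levels in sgLkb1 were 1.06 TPM for *Loxl1*, 0.98 TPM for *Loxl2*, 1.01 TPM for *Loxl3* and 0.56 TPM for *Loxl4*, and these neighbours in the order overlapped. The effective length of *Loxl3* ran from 793.63 to 3327.55 bases and that of *Loxl4* from 789.18 to 3525.57 among libraries, because the estimated mix of transcripts differed, so their TPM values carry that uncertainty. The plot of levels by library shows the 5 genes on 1 scale.

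**Figure D1:**
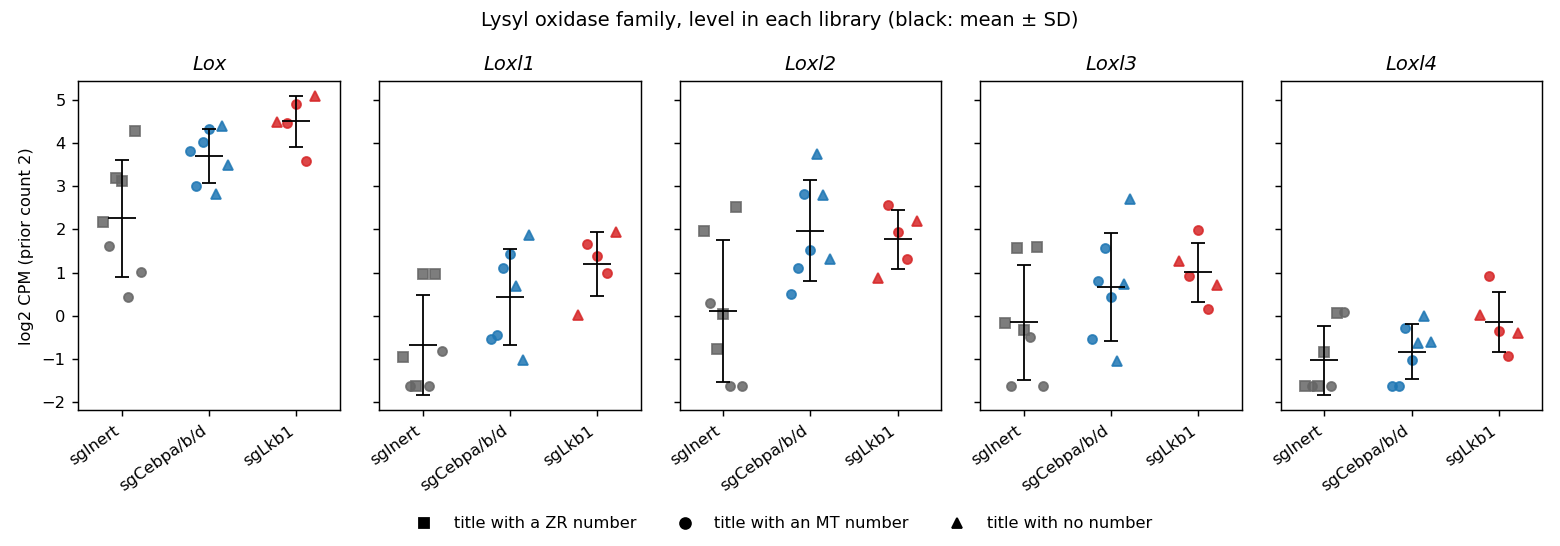
Level of each lysyl oxidase gene in each library, as log2 CPM (counts scaled to library size, prior count 2), with 7 sgInert, 7 sgCebpa/b/d and 5 sgLkb1 libraries. Each point is 1 library, its shape gives the series of its title, and black bars are the mean ± SD; *Lox* lies highest, with sgInert libraries from 0.44 to 4.29 and sgLkb1 libraries from 3.58 to 5.09.

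*Lox*, which encodes the enzyme the family is named for, was higher in sgLkb1 than in sgInert cells. The gene lies at chr18:52516067-52529867 (GRCm38, minus strand). In sgInert libraries it had 7 to 107 counts (median 22), in sgCebpa/b/d libraries 38 to 123 (median 76), and in the 5 sgLkb1 libraries 192, 139, 197, 118 and 231. Scaled to library size this was 1.03 to 19.3 CPM in sgInert (mean 6.57 ± 6.38, SD, n = 7), 6.71 to 20.8 in sgCebpa/b/d (13.7 ± 5.56, n = 7) and 11.6 to 33.6 in sgLkb1 (23.8 ± 8.51, n = 5). Of the sgInert libraries, 6 lay under every sgLkb1 library and 1, replicate 6 with 107 counts (19.3 CPM), lay among them. The mean difference was 2.25 on the log2 CPM scale between sgLkb1 and sgInert (two-sided exact permutation test, p = 0.00505), 1.44 between sgCebpa/b/d and sgInert (p = 0.0286, exact permutation test) and -0.81 between sgCebpa/b/d and sgLkb1 (p = 0.048, exact permutation test). These 3 values belong to 15 unadjusted tests over all libraries, 1 for each member and pair of groups, in which the smallest possible p was 0.000583 for 7 against 7 libraries and 0.00253 for 7 against 5.

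In the model of all genes, a gene was called where edgeR's quasi-likelihood test gave a Benjamini-Hochberg adjusted p under 0.05 and the log2 fold change exceeded 1 in size. *Lox* rose 3.63-fold in sgLkb1 against sgInert (log2 fold change 1.86, SE 0.49, 95% interval 0.84 to 2.88, edgeR adjusted p = 0.0261) and was called. Against the same sgInert libraries, *Lox* in sgCebpa/b/d had a log2 fold change of 1.06 (SE 0.46, interval 0.10 to 2.02, edgeR adjusted p = 0.164), which did not pass. The difference between sgCebpa/b/d and sgLkb1 itself was -0.80 (SE 0.48, interval -1.79 to 0.19, edgeR adjusted p = 0.401), so that the 2 groups were not shown to differ.

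Thus 1 of the 4 members that could be tested was called higher in sgLkb1 and 0 of 4 in sgCebpa/b/d. Over all 13986 genes tested, 1.87% were called higher and 1.14% lower in sgLkb1, and 2.65% were called higher and 2.00% lower in sgCebpa/b/d. Between sgCebpa/b/d and sgLkb1, 1.16% of genes were called higher and 1.64% lower, and 0 of the 4 members. Before adjustment, edgeR gave a p below 0.05 for 2 of the 4 members, *Lox* and *Loxl2*, in sgCebpa/b/d against sgInert, for 2, *Lox* and *Loxl1*, in sgLkb1 against sgInert, and for 0 between sgCebpa/b/d and sgLkb1. Of all genes tested, 23.2%, 18.5% and 18.3% had such a p in these comparisons. DESeq2 called as many members as edgeR in each of the 3 comparisons. The plot of fold changes shows all 3 comparisons side by side.

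**Figure D2:**
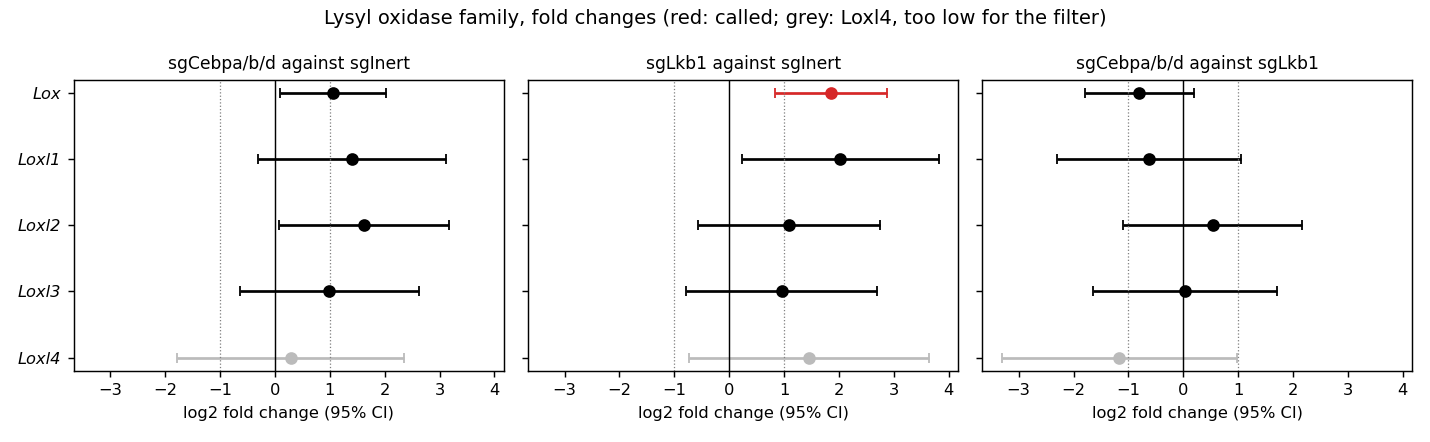
Log2 fold change of each lysyl oxidase gene with its 95% interval in the 3 comparisons, from the edgeR model of 19 libraries. Dotted lines mark log2 fold changes of -1 and 1, red marks the call of *Lox* in sgLkb1 against sgInert (1.86), and grey marks *Loxl4*, whose counts did not pass the filter.

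The call of *Lox* in sgLkb1 was near the threshold. It was lost without sgInert replicate 1 (log2 fold change 1.77, edgeR adjusted p = 0.0535), sgInert replicate 2 (1.72, adjusted p = 0.0505), sgLkb1 replicate 3 (1.77, adjusted p = 0.0578) or sgLkb1 replicate 5 (1.70, adjusted p = 0.0751), though the value moved little. It was also lost where the libraries of 1 animal number were added together (1.68, edgeR adjusted p = 0.0978) and where libraries without an animal number were left out (1.69, adjusted p = 0.138). In sgCebpa/b/d, *Lox* was called once sgInert replicate 6 was left out (1.66, edgeR adjusted p = 0.013).

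Within the sgInert group *Lox* followed the title series. The 4 ZR libraries had 22 to 107 *Lox* counts (mean 3.19 on the log2 CPM scale) and the 3 MT libraries 7 to 15 (mean 1.02). Within the MT series *Lox* had 1.03 to 2.73 CPM in 3 sgInert, 7.76 to 19.8 CPM in 4 sgCebpa/b/d and 11.6 to 29.9 CPM in 3 sgLkb1 libraries. Every sgCebpa/b/d and sgLkb1 library of the series lay above every sgInert library, and the former 2 groups overlapped. How many of all genes separate in this way in so few libraries was not counted. With the MT libraries alone, *Lox* was called higher in both sgCebpa/b/d (log2 fold change 2.98, edgeR adjusted p = 0.00109) and sgLkb1 (3.54, adjusted p = 0.000398). These libraries come from 2 animal numbers in each group, so these p-values do not measure the spread between animals. Exact permutation tests of the MT libraries gave p = 0.0571 and p = 0.1, the smallest that 4 against 3 and 3 against 3 libraries allow. What sets the ZR libraries apart was not tested, and the plot of settings shows how far the value moved.

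**Figure D3:**
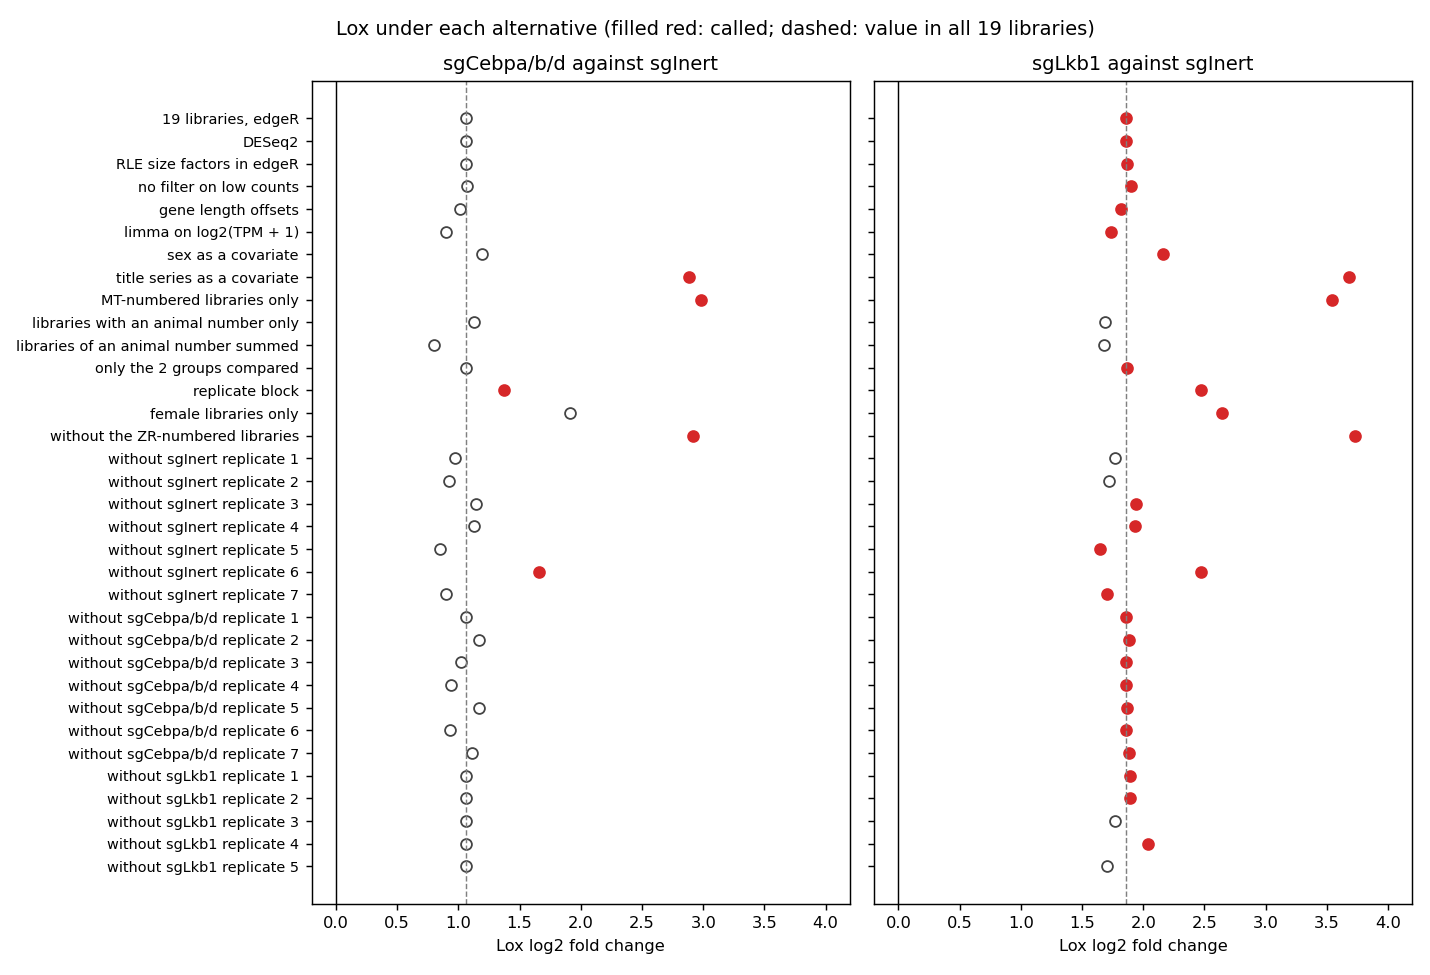
Log2 fold change of *Lox* against sgInert under each way of fitting the data, for sgCebpa/b/d (left) and sgLkb1 (right). Filled red points passed both thresholds of the call; dashed lines mark 1.06 and 1.86, and the highest values, 2.88 to 2.98 and 3.54 to 3.73, came where the ZR libraries were left out or the series was a term.

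*Loxl1*, whose product acts mainly on elastic fibres, had few counts. The gene lies at chr9:58287738-58313186 (GRCm38, minus strand). Its counts in sgInert were 0 to 9 (median 1), with 3 of 7 libraries at 0. In sgCebpa/b/d they were 1 to 20 (median 8) and in sgLkb1 6, 18, 15, 17 and 24. A library at 0 allows up to 3 counts, which corresponds to 0.29 to 1.09 CPM over the 19 libraries, and this covers counting error alone. The sgInert libraries were low except for replicates 4 and 6, which overlapped with the sgLkb1 libraries. The log2 fold change was 2.03 in sgLkb1 (SE 0.86, interval 0.24 to 3.82, edgeR adjusted p = 0.195) and 1.41 in sgCebpa/b/d (SE 0.82, interval -0.30 to 3.12, adjusted p = 0.325), and neither passed. The exact permutation test of mean log2 CPM gave p = 0.0152 for sgLkb1 and p = 0.0927 for sgCebpa/b/d. In the MT series, *Loxl1* summed to 1 count over 3 sgInert and 50 counts over 3 sgLkb1 libraries, a ratio per library size of 37.5 (95% exact counting interval 6.42 to 1510, counting error only). With 0 to 1 counts per sgInert library, it passed the filter there through the other groups alone.

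*Loxl2*, which encodes an enzyme also known for crosslinking basement membrane collagen and for binding SNAI1, varied widely in sgInert. The SD of its log2 CPM was 1.64 there, beside 1.16 in sgCebpa/b/d and 0.68 in sgLkb1. The gene lies at chr14:69609068-69695834 (plus strand). It had 0 to 30 counts in sgInert (median 3), 3 to 82 in sgCebpa/b/d (median 18) and 13, 36, 23, 22 and 29 in sgLkb1. The highest values, 82, 41 and 39, were all in sgCebpa/b/d, and in sgInert replicates 1 and 6 (19 and 30 counts) lay among the other groups. In 1 sgCebpa/b/d library, replicate 5, *Loxl2* reached 3.06 TPM and exceeded *Lox* at 1.88 TPM, the single library in which another member was highest. Its log2 fold change came to 1.63 for sgCebpa/b/d (SE 0.75, interval 0.07 to 3.18, edgeR adjusted p = 0.19) and 1.09 in sgLkb1 (SE 0.80, interval -0.57 to 2.75, adjusted p = 0.521). Between sgCebpa/b/d and sgLkb1 it was 0.54 (interval -1.09 to 2.16, edgeR adjusted p = 0.783). *Loxl2* was thus not called, with an interval that left out 0 in sgCebpa/b/d against sgInert and included it in the other 2 comparisons.

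*Loxl3*, whose product crosslinks collagen in the developing palate and spine, did not pass in any comparison. The gene lies at chr6:83034173-83052562 (plus strand). It had 0 to 15 counts in sgInert (median 3), 1 to 37 in sgCebpa/b/d (median 8) and 18, 10, 24, 8 and 9 in sgLkb1. The groups overlapped, with sgCebpa/b/d holding both the highest library (37 counts) and 2 libraries with 1 count. It stood at a log2 fold change of 0.99 for sgCebpa/b/d (SE 0.79, edgeR adjusted p = 0.5) and 0.96 in sgLkb1 (SE 0.84, adjusted p = 0.607). Between those groups it was 0.03, with an interval of -1.65 to 1.71.

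*Loxl4* was the faintest member and was too low for the filter. The gene lies at chr19:42593982-42612813 (minus strand). It had 44 counts in all 19 libraries together, and 15 libraries held 3 counts or fewer. In sgInert 4 of 7 libraries were at 0 and the highest had 4. In sgCebpa/b/d the counts were 0 to 4 (median 2), and in sgLkb1 they were 6, 10, 3, 2 and 3. Summed over libraries, 24 counts in sgLkb1 stood against 8 in sgInert, a ratio per library size of 2.81 (95% exact counting interval 1.22 to 7.24), which covers counting error and not the spread between libraries. The exact permutation test over libraries gave p = 0.0783.

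Collagens and elastic fibres are the substrates of these enzymes, and 1 of 5 tested genes of the first and 2 to 4 of 13 of the second were called, where 4.65% of all genes were called in either direction in sgCebpa/b/d and 3.01% in sgLkb1 against sgInert. Of 11 fibrillar collagen genes 5 could be tested, and 1, *Col3a1*, rose in both sgCebpa/b/d (log2 fold change 1.52, SE 0.47, edgeR adjusted p = 0.0401) and sgLkb1 (1.70, SE 0.50, adjusted p = 0.0435). An unadjusted edgeR p under 0.05 was seen for all 5 in both comparisons, against 23.2% and 18.5% of all genes tested. DESeq2 called 2 of the 5 in each. The median of the 5 was 1.47 and 1.70, against 0.02 and -0.01 over all genes tested. *Col1a1* had log2 fold changes of 1.46 and 1.27 that did not pass (edgeR adjusted p = 0.0969 and 0.239). Of 13 tested elastic fibre genes, *Fbn2* (1.49) and *Fbln5* (1.12), a fibulin that ties LOXL1 to elastin, rose in sgCebpa/b/d. In sgLkb1 *Fbn1* (1.90), *Ltbp1* (1.83) and *Fbln5* (1.37) rose and *Efemp1* (-1.23) fell, and the medians of the 13 were 0.79 and 0.69. In the MT libraries alone *Fbn2* (0.82) and *Fbln5* (0.97) in sgCebpa/b/d and *Efemp1* (-0.94) in sgLkb1 were no longer called. *Eln*, the elastin gene, had 0.54 and 0.69 and did not pass (edgeR adjusted p = 0.573 and 0.541). Of 17 tested genes for modification and folding of collagen, only some of which act on its lysines, 0 were called in either comparison by edgeR. Of the 17, 6 had an unadjusted p under 0.05 in each, and DESeq2 called 1 in each. Their medians were 0.07 and -0.003.

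Of 7 tested genes for procollagen processing and LOX activation, *Postn*, the scaffold periostin, rose in sgCebpa/b/d (1.98, edgeR adjusted p = 0.0316) and sgLkb1 (2.42, adjusted p = 0.0209). *Fn1*, fibronectin, rose in sgLkb1 against sgInert (2.40, SE 0.39, edgeR adjusted p = 0.00056), as did *Pcolce*, which enhances procollagen cleavage (1.02, adjusted p = 0.0066). *Bmp1*, the protease that cleaves the LOX propeptide, had log2 fold changes of 0.22 and -0.03 (edgeR adjusted p = 0.467 and 0.96), at 22.22 to 50.76 TPM in sgInert libraries. The medians of the 7 were 0.81 and 1.02.

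Genes of copper supply held the most calls among these lists. Their levels were mixed, from 964 to 1953 counts of *Slc31a1* in sgInert libraries to 9 to 27 of *Ccs*, which loads copper onto superoxide dismutase. Of 12 tested, 2 rose and 4 fell in sgCebpa/b/d, and 2 rose and 3 fell in sgLkb1. *Slc31a1*, the copper importer, had 60.45 to 124.28 TPM in sgInert, 16.84 to 39.75 TPM in sgCebpa/b/d and 48.91 to 57.87 TPM in sgLkb1 libraries. It fell in both (log2 fold changes -1.67 and -1.13, edgeR adjusted p = 8.08e-08 and 8.63e-05). *Atp7b*, a copper exporter, fell by 3.01 and 1.04 on the log2 scale, and *Steap2*, a metal reductase, fell by 2.83 and 1.61. *Mt2*, a metal-binding metallothionein, rose by 2.26 and 1.67. *Steap4*, another metal reductase, fell in sgCebpa/b/d (-1.65) and rose in sgLkb1 (1.46). *Atp7a*, the pump that loads copper onto secreted enzymes such as LOX, had log2 fold changes of 0.00 and -0.21 and did not pass (edgeR adjusted p = 0.999 and 0.491). The median of the 12 was -0.17 and -0.31. Within the MT libraries the falls of *Slc31a1* (-0.95, edgeR adjusted p = 0.00384) and *Atp7b* (-0.95, adjusted p = 0.167) in sgLkb1 were no longer called.

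*Lox* is counted among the hypoxia-response genes. Of 15 tested, 0 were called in sgCebpa/b/d against sgInert by edgeR or DESeq2, with 7 at an unadjusted p under 0.05, and 1, *Ankrd37*, rose in sgLkb1 (1.47, edgeR adjusted p = 0.0319). The medians were -0.31 and 0.24. Among 7 tested factors and markers of epithelial-mesenchymal transition, which LOXL2 and LOXL3 are known to influence, *Zeb2* and *Vim* rose in both comparisons (1.56 and 2.13 in sgCebpa/b/d, 1.77 and 2.00 in sgLkb1), with medians of 1.56 and 1.28. *Cdh1*, the epithelial marker of the list, did not fall, with log2 fold changes of 0.01 and 0.13 (edgeR adjusted p = 0.959 and 0.59). *Zeb2* was not called in the MT libraries alone (0.87 and 1.35, edgeR adjusted p = 0.251 and 0.0795). Of all calls in these lists and in the marker lists below, 12 of 22 in sgCebpa/b/d and 16 of 20 in sgLkb1 against sgInert were also made with the MT libraries alone. The plot of related lists gives each tested gene.

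**Figure D4:**
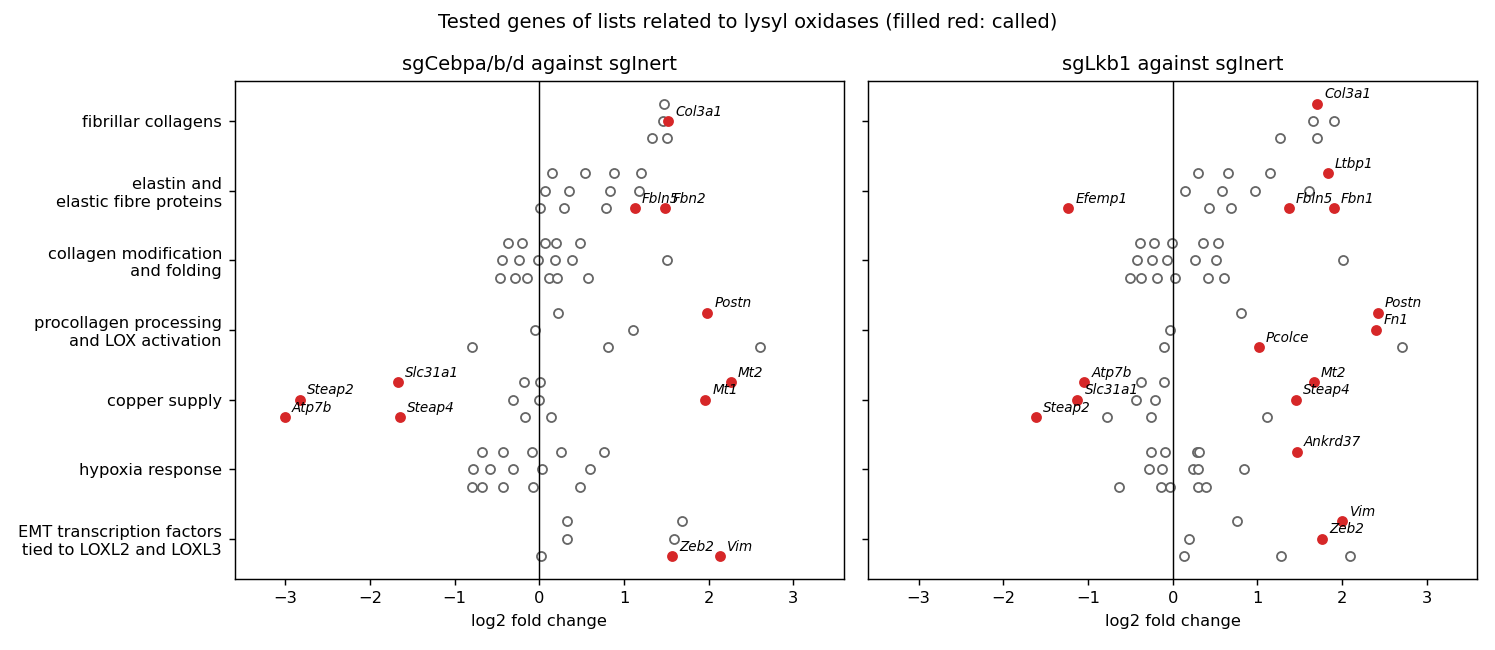
Log2 fold change of each tested gene in 7 lists related to lysyl oxidases, for sgCebpa/b/d against sgInert (left) and sgLkb1 against sgInert (right). Each point is 1 gene, spread in height for legibility, and filled red points with names were called; the copper supply genes reach from -3.01 (*Atp7b*) to 2.26 (*Mt2*) on the left.

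Matrix genes were among those most like *Lox*, *Loxl1* and *Loxl2* from library to library. The 5 genes whose log2 CPM was most like that of *Lox* over the 19 libraries were *Fbn1* (Pearson r 0.90), *Fstl1* (0.90), *Col5a2* (0.89), *Mgp* (0.89) and *Fn1* (0.89), all of them genes of secreted or matrix proteins. Those most like *Loxl1* were *Ddr2*, a collagen receptor (0.90), *Mark1* (0.81), *Col3a1* (0.80), *Itgb5* (0.80) and *C4b* (0.80). For *Loxl2* they were *Adamts12* (0.85), *Eln* (0.84), *Col3a1* (0.83), *Igf1* (0.82) and *Col6a3* (0.80). For *Loxl3* they were *1110038F14Rik* (0.75), *Vps51* (0.74), *Mxra7* (0.74), *Phb* (0.73) and *Frg1* (0.72), none of which is a fibrillar collagen gene, and *Loxl4*, which did not pass the filter, was not compared. Among the members themselves r ran from 0.35 (*Loxl2* and *Loxl3*) to 0.68 (*Lox* and *Loxl1*). These are descriptions over 19 libraries in 3 groups, which also share depth and title series.

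Most tested fibroblast markers had positive log2 fold changes, and few were called. The 14 markers summed to 23.4 to 64.5 TPM in sgInert, 61.4 to 145 TPM in sgCebpa/b/d and 55.2 to 154 TPM in sgLkb1 libraries. Of these, *Gsn*, which other cells express too, gave 17.04 to 23.75 TPM of the sgInert sums and 23.85 to 31.35 TPM of the sgLkb1 sums, and *Mfap4* and *Twist2* are also on the lists above. Of the 9 that could be tested, 1 was called higher in each group, *Dcn*, the collagen-binding decorin. It had 0 to 128 counts in sgInert (median 36), 118 to 610 in sgCebpa/b/d (median 512) and 166 to 640 in sgLkb1 (median 563), with log2 fold changes of 2.88 and 2.84 (edgeR adjusted p = 0.00129 and 0.00412). Its median was 5.13 TPM in sgInert, 67.25 TPM in sgCebpa/b/d and 78.65 TPM in sgLkb1. The median sums of the 14 markers were 43.8, 121 and 130 TPM, so much of the rise in the sums was *Dcn*. In sgCebpa/b/d against sgInert the other tested markers ran from *Inmt* (-1.13) to *Lum* (2.49), with *Dpt* (-0.10) and *Mfap4* (0.01) between them. Positive log2 fold changes were seen for 7 of 9 in sgCebpa/b/d and 9 of 9 in sgLkb1, against 52.4% and 48.6% of all genes tested. An unadjusted edgeR p under 0.05 was seen for 4 and 2 of the 9. The medians of the 9 were 0.61 and 0.86 in the 2 comparisons. *Pdgfra*, a defining fibroblast gene, was above 0 in all 19 libraries at 9 to 149 counts, and *Lum* was at 0 in 5 of 7 sgInert libraries and in none of the others, while *Twist2* never exceeded 1 count. Over the 19 libraries, r with the log2 summed markers was 0.84 for *Lox*, 0.75 for *Loxl1*, 0.70 for *Loxl2* and 0.57 for *Loxl3*. The sgInert libraries with the least marker RNA, the 3 MT libraries at 23.4 to 36.1 TPM, were also the 3 with the lowest *Lox* CPM. The part of fibroblast RNA in the *Lox* result was not tested, and in bulk RNA fewer cells of a type and less RNA per cell cannot be told apart.

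**Figure D5:**
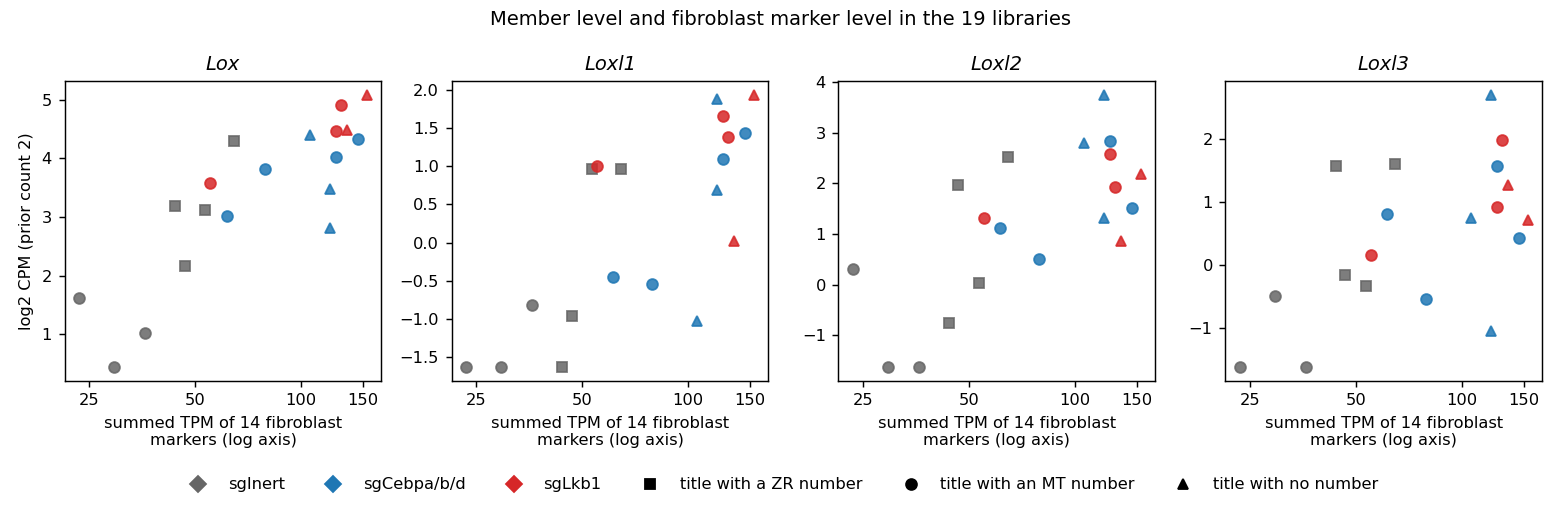
Level of 4 lysyl oxidase genes (log2 CPM, prior count 2) against the summed TPM of 14 fibroblast markers (log axis) in 19 libraries, coloured by group and shaped by title series. *Lox* rises from the 3 sgInert MT libraries, at 23.4 to 36.1 TPM of markers, to sgLkb1 replicate 5 at 154 TPM.

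Summed markers of other cell types had a lower r with each of the 4 tested members than fibroblast markers had, a difference that was not tested. The 9 smooth muscle and pericyte markers summed to 2.27 to 8.96 TPM in sgInert, 4.08 to 14 TPM in sgCebpa/b/d and 10.8 to 25.4 TPM in sgLkb1, with r of 0.53 for *Lox*, and *Rgs5* was called in sgLkb1 (log2 fold change 3.32). The 6 mesothelial markers gave 27.7 to 60.4, 31 to 67.7 and 57.7 to 101 TPM with r of 0.52, *Msln* being called in sgLkb1 (3.17), while *Wt1* was at 0 in all sgInert libraries and never above 1 count. Of these markers, *Krt19* had the most counts in each group, at 113 to 318, 160 to 610 and 307 to 751. *Msln* had 0 to 13, 0 to 15 and 42 to 118. The study also found *Krt19* high in a cluster of neoplastic cells, so this sum does not measure mesothelial RNA alone. The 9 endothelial markers gave 12.2 to 30.1, 23.3 to 164 and 48.7 to 124 TPM with r of 0.40, and 6 of 9 were called higher in sgCebpa/b/d and 1 of 9 in sgLkb1. The 10 immune markers gave 6.12 to 29.6, 5.53 to 66.5 and 7.14 to 63.3 TPM with r of 0.13, and 0 of 7 tested were called by edgeR in either comparison (3 and 2 at an unadjusted p under 0.05, and 1 and 0 called by DESeq2). The 10 epithelial markers had r of -0.09 with *Lox*. Of these 10, 3 were called lower in sgCebpa/b/d against sgInert, where 2.00% of all genes were, and 0 were called in sgLkb1. The 3 were *Abca3* (-1.33), *Etv5* (-1.15) and *Lamp3* (-1.02), and *Lamp3* was not called in the MT libraries alone (-0.73). An unadjusted edgeR p under 0.05 was seen for 6 of the 10 in sgCebpa/b/d and 7 in sgLkb1. Over all genes tested these shares were 23.2% and 18.5%. The part of these cell types in the members' levels was not tested.

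*Lox* itself overlaps, on the opposite strand, an antisense gene that the annotation places over one of its exons (AC161119.1), and *Loxl2* and *Loxl3* overlap *Gm27177* and *Htra2* in the same way. Whether counting used strand is not given in the sources used here, so reads of such pairs may not be told apart. AC161119.1 has no entry among the counted genes, so its level beside *Lox* could not be seen. *Gm27177* had at most 13 counts in any library. *Htra2*, a mitochondrial protease gene, had 10 to 61 counts, more than *Loxl3* had in 17 of 19 libraries, and its r with *Loxl3* over 19 libraries was -0.39.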

How the data were processed

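RNA of sorted neoplastic cells from 19 libraries was sequenced as paired reads after amplification with the Trio RNA-Seq kit. A further allele that the mice of all groups share is not reported here. Per the labels and the study's methods, the authors aligned reads with STAR 2.6.1d to mm10 and estimated expected counts and TPM per gene with RSEM 1.2.30, then used DESeq2 1.26.0. The deposited expected counts are RSEM's raw estimated counts. The deposited TPM values correct these for each gene's effective length, which is deposited beside them. The authors' deposited normalized tables and comparison tables (fold changes and p-values) were not used.

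After rounding to integers, 13986 of 53558 genes passed filterByExpr (minimum count 10, minimum total 15). The main test was edgeR's quasi-likelihood F-test after TMM scaling, in 1 model of 3 groups. CPM used TMM library sizes, log2 CPM a prior count of 2. Totals were 2760722 to 9944131 per library, so that 3 counts, the floor of a library at 0, were 0.29 to 1.09 CPM; intervals and floors cover counting error only. Values of *Loxl4* come from a model without the filter. Chi-square per gene between replicates was 7.34 to 78.7 over 52 pairs, so no pair differed by less than sampling noise. Exact permutation tests compared mean log2 CPM (two-sided, unadjusted), in 15 tests over all libraries and 15 over the MT libraries, 30 in all. Lists were described by counts and medians only.

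The members, the lists and the tests were chosen with earlier results of these data known. Genes named beside the members were up to 4 called genes with the smallest p per list and comparison, the 5 genes with the highest Pearson r to each tested member, and *Stk11*, *Cebpa*, *Cebpb* and *Cebpd*. *Col1a1*, *Eln*, *Bmp1*, *Atp7a*, *Pdgfra*, *Lum*, *Gsn*, *Twist2*, *Wt1*, *Krt19*, *Cdh1*, *Ccs*, *Inmt*, *Dpt*, *Mfap4*, *Sftpc* and *Nkx2-1* were added for their known roles or as examples of a list after their values were seen. Alternatives were DESeq2, RLE scaling, no filter, length offsets, limma on log2(TPM + 1), sex or title series as covariate, subsets of libraries, summed animals, a replicate block and leaving out each library; female libraries only and leaving out the ZR libraries were chosen after seeing the data. Coordinates and transcripts are GENCODE vM21 (GRCm38). R 4.3.3, edgeR 4.0.16, limma 3.58.1, DESeq2 1.42.0, Python 3.11.15 and scipy 1.17.1 were used, and the fit was tested on simulated data.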

Additional observations from a re-analysis of the deposited data

How the results depend on the processing

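*Lox* in sgLkb1 against sgInert stayed positive in all settings (1.65 to 2.47 over the 19 fits that leave out a library, 1.68 to 3.73 over the other 14), and was called in 15 of 19 and 12 of 14. The calls lost with single libraries are named in the report. It was not called with the animal-numbered libraries only (1.69, 0 members called) or with libraries of an animal summed (1.68, 0 members called). In sgCebpa/b/d, *Lox* ranged from 0.85 to 1.66 with a library left out. It was called with title series as a covariate (2.88, 1 member called), in the MT libraries only (2.98, 1 member) and without the ZR libraries, a setting chosen after seeing the data (2.92), where *Loxl2* was called too (3.95, 2 members). In sgLkb1, *Loxl1* was called in the MT libraries (4.82, 2 members) and without the ZR libraries (4.77, 2 members); with 0 to 1 sgInert counts per MT library these fitted values depend on the prior count and are no bounds, and *Loxl1* passed the filter there through the other groups alone. Leaving out a library gave 0 to 1 members called in each of these 2 comparisons. Of all genes in the MT libraries, 313 of 13674 were called higher in sgCebpa/b/d and 325 in sgLkb1 against sgInert. Without the ZR libraries these numbers were 403 and 348 of 14740. With title series as a covariate, 289 of 13986 were called higher in sgCebpa/b/d.

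Shared replicate numbers did not pair the libraries. Deviations of same-numbered libraries correlated at -0.388 to 0.417 over 17 pairs, with 7 over 0.1, and 4 of 34 comparisons matched best with their own number. With the replicate block *Lox* in sgCebpa/b/d was called (1.37, edgeR adjusted p = 0.0434, 1 member called), where 344 of 13986 genes were called higher. With the block *Loxl4* in sgLkb1 against sgInert was 2.96, and *Loxl3* and *Loxl4* in sgCebpa/b/d against sgLkb1 were -0.71 and -2.17. The block changed no other call of the members.

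The difference of *Loxl3* between sgCebpa/b/d and sgLkb1, 0.03, changed sign with length offsets (-0.50), limma (-0.38), sex (-0.64) or title series (-0.04) as a covariate, MT libraries only (-0.47), animal-numbered libraries only (-0.49) and female libraries only, also chosen after seeing the data (-0.40), and ran from -0.66 to 0.40 with a library left out. That of *Loxl2*, 0.54, changed sign with sex (-0.29), in the MT (-0.26), animal-numbered (-0.27) and female libraries (-0.12). *Loxl4* in sgLkb1 against sgInert, 1.45, became 2.32 with length offsets, 0.54 with limma, 2.66 with sex and 3.06 in female libraries; in sgCebpa/b/d against sgInert, 0.29, it became 1.2 in female libraries; and in sgCebpa/b/d against sgLkb1, -1.17, it became -0.44 with limma, -2.03 with sex and -1.98 in the MT and the animal-numbered libraries. The causes were not tested.

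Over all genes, calls in sgCebpa/b/d against sgInert numbered 650, but 419 in animal-numbered and 381 in female libraries. In sgLkb1 against sgInert they numbered 421 (261 higher, 160 lower), but 750 with sex as a covariate and 382 higher and 90 lower with limma on log2(TPM + 1), which moved the median of all genes from -0.01 to 0.18. In sgCebpa/b/d against sgLkb1 they numbered 391 (162 higher, 229 lower), but 636 in female libraries and 92 higher and 321 lower with limma. Low counts limit *Loxl1* to *Loxl4*, whose intervals span several-fold changes.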

Other observations

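Of the 9 endothelial markers, 6 were called higher in sgCebpa/b/d against sgInert over all libraries, and these calls were not made in the MT libraries alone, where *Lox* was called (2.98, edgeR adjusted p = 0.00109). *Emcn*, *Vwf* and *Pecam1*, genes of vessel lining cells, had log2 fold changes of 2.6, 3.09 and 1.95 over all libraries (edgeR adjusted p = 0.00668, 0.0105 and 0.0203). In the MT libraries they had 0.69, 0.94 and -0.10 (edgeR adjusted p = 0.527, 0.321 and 0.92), and *Tie1* was too low there to be tested. *Dcn*, a fibroblast marker, had 4.52 (edgeR adjusted p = 0.00273). In sgLkb1 against sgInert, *Emcn* was called over all libraries (2.45, edgeR adjusted p = 0.0233) and in the MT libraries alone (2.22, adjusted p = 0.0227). Within the MT series, the endothelial markers summed to 18.4 to 30.1 TPM in sgInert, 23.3 to 44.7 TPM in sgCebpa/b/d and 48.7 to 76.1 TPM in sgLkb1 libraries. The difference between these genes was not tested.

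The libraries without a number in their title had the most immune marker RNA in their groups, at 45.3 to 66.5 summed TPM in 3 sgCebpa/b/d and 32.7 and 63.3 TPM in 2 sgLkb1 libraries, against 5.53 to 11.2 and 7.14 to 15.9 TPM in the MT libraries of those groups. Their *Lox* levels overlapped with those of the MT libraries, at 6.71 to 20.8 CPM beside 7.76 to 19.8 CPM in sgCebpa/b/d and at 22.2 and 33.6 CPM, the latter the highest of all libraries, beside 11.6 to 29.9 CPM in sgLkb1.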
